A study of Mus musculus with 6 samples.

Results

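Transcripts of 34 genes that mark the making and the maturation of neutrophils were followed in livers of sham-operated mice and of mice that underwent vertical sleeve gastrectomy (VSG), in which the greater part of the stomach is taken out. The 34 genes were given as a list of names and found in the deposited table of 55385 genes through their identifiers, and all 34 were matched. They comprised 4 genes of the azurophil granule, 3 early regulators or markers, 4 genes of the intermediate stage, 8 genes of the specific granule, 1 gene of the gelatinase granule, 8 mature cytosolic or secreted products and 6 mature receptors or surface proteins. The members were chosen with the VSG and sham values of these same libraries known, so the differences between VSG and sham are given as a description, and no test of them is read as support. Both groups were wild-type male C57BL/6 mice that were 6 to 8 weeks old per the labels, were fed a high-fat diet (HFD) for 10 weeks, underwent VSG or the sham operation and stayed on HFD for a further 12 weeks. Poly(A) RNA came from about 40 mg of liver, with 3 sham livers (sham 1, sham 2 and sham 3) and 3 VSG livers (VSG 4, VSG 5 and VSG 6), numbered as in the labels. Liver pieces of this kind hold blood as well as tissue, and whether the livers were flushed was not given in the sources used here. In such bulk RNA a greater number of cells of a type and more RNA per cell cannot be told apart.

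Neutrophils are made in the bone marrow in steps, and each step fills a different set of granules. Promyelocytes transcribe the azurophil (primary) granule proteins, myelocytes and metamyelocytes the specific (secondary) granule proteins, and band cells the gelatinase granule proteins, while receptors for chemokines and colony-stimulating factors accumulate in the mature cell. The granule proteins persist in the mature cell after their transcripts have declined, so a circulating neutrophil usually holds little azurophil granule mRNA. C/EBP family factors, among them C/EBPε, and the ETS family factor PU.1 are known regulators of these genes.

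The sham libraries held 23666809 to 24191778 counts and the VSG libraries 22804397 to 23509921, so that raw counts of a gene can be set side by side to within the scaling factors of 0.897 to 1.15. Levels are given as CPM, counts scaled to library size with trimmed mean (TMM) factors. Values of 3 counts or fewer were treated as the floor, which lay at 0.111 to 0.143 CPM depending on the library. The liver label was borne out by hepatocyte transcripts. Apoa1, an apolipoprotein of hepatocytes, was at 4618 ± 1135 CPM in sham livers (SD, n = 3) against 4994 ± 1232 CPM after VSG, a difference smaller than the spread, and Alb, which encodes albumin, also overlapped between the groups. All 6 genes used as neutrophil markers (S100a8, S100a9, Ly6g, Csf3r, Cxcr2 and Retnlg) were above the floor in every VSG liver. S100a8, S100a9, Csf3r and Retnlg were above it in every sham liver as well, so detection alone does not set the VSG livers apart. Over all 14454 genes tested with the edgeR quasi-likelihood test, 14.7% were called at an adjusted p under 0.05, 6.79% as higher and 7.87% as lower after VSG, and the median log2 fold change was 0.03. Reads of mitochondrial genes made up 5.59% to 6.58% of counts in sham and 4.14% to 5.01% in VSG livers, lowest in VSG 4, and the 10 most abundant genes held 16.96% to 19.1% in sham livers and 18.1% in VSG 5, against 23.7% in VSG 4 and 22.9% in VSG 6. These library measures moved with the group or with the order of the VSG livers, and their part in the results was not tested. The VSG livers were unlike each other. In 32 of the 34 genes VSG 4 was highest and VSG 5 lowest of the 3, and the values of VSG 5 are therefore given beside those of VSG 4 and VSG 6.

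Sequences before the start sites are shown for the azurophil granule genes and for 3 abundant specific granule genes, because these 7 carry the contrast of early with late genes. RefSeq promoter windows (GRCm38.p6, the 250 bases before the RefSeq start) were matched by symbol for 29 of the 34 genes. They are printed 5′ to 3′ on the strand of the gene. In 6 of the 7 the window reached into an exon of GENCODE M21, and the stretch printed stops before that exon. Capitals mark the letters GGAAGT, a short motif of the ETS and PU.1 type, or TTGCNNAA, a motif of the C/EBP type, each searched on both strands. In none of the 29 genes did a match of one share a letter with a match of the other. The stretch of Mpo lies at chr11:87793534-87793580 on the plus strand, Elane at chr10:79886062-79886246 on the plus strand, Prtn3 at chr10:79879417-79879613 on the plus strand and Ctsg at chr14:56102575-56102824 on the minus strand. That of Ltf lies at chr9:111019042-111019270 on the plus strand, Camp at chr9:109849618-109849706 on the minus strand and Ngp at chr9:110419558-110419746 on the plus strand.
Mpo: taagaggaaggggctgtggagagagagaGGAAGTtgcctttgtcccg
Elane: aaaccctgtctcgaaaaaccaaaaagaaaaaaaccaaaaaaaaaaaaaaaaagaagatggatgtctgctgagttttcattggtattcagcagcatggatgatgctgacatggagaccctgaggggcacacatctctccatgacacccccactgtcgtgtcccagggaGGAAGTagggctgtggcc
Prtn3: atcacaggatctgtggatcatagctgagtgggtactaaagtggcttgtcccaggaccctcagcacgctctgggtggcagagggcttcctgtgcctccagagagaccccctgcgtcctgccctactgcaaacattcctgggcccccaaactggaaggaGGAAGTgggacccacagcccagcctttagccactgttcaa
Ctsg: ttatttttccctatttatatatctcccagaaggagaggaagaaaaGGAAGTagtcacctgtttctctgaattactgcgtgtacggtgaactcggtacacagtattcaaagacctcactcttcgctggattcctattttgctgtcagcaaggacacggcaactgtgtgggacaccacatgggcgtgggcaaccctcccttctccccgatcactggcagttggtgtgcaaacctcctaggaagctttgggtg
Ltf: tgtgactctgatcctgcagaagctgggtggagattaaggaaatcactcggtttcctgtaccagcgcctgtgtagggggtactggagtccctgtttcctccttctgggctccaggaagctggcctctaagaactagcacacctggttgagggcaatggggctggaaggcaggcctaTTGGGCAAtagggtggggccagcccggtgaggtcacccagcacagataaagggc
Camp: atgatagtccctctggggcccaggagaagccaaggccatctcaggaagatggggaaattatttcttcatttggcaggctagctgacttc
Ngp: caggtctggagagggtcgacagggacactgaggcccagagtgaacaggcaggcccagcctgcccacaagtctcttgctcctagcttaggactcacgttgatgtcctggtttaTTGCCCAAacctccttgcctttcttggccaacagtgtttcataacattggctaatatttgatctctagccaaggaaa

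Each of the 4 azurophil granule windows held GGAAGT once and TTGCNNAA not at all. The first letter of GGAAGT lay 222 bases before the RefSeq start in Mpo, 83 in Elane, 93 in Prtn3 and 205 in Ctsg. The Ltf and Ngp windows held TTGCNNAA and no GGAAGT, with 1 match 75 bases before the start in Ltf and 2 matches in Ngp, 138 and 11 bases before it, the nearer of which lies in the exon that was not printed. The Camp window held neither. A gene with several RefSeq starts was counted once if any of its windows held the motif. GGAAGT occurred in 18 of the 29 genes (62.1%), against 22.2% of all 27025 genes with windows of the same length and 27% of the 10776 tested genes among them. TTGCNNAA occurred in 8 of the 29 (27.6%), namely Gfi1, Fcnb, Ltf, Ngp, Mmp8, S100a9, Retnlg and Ly6g, against 10.8% of the 27025 genes. These are matches of letters, not sites shown to be bound.

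Of the 34 genes, 30 passed the filter on low counts and 4 were too low (Gfi1, Ceacam10, Stfa2 and Stfa3). The edgeR fit called 24 of the 30 as higher after VSG and 1 as lower, where 6.79% and 7.87% of all tested genes were called in these directions. Because the list was chosen on this contrast, nothing is read from that excess. By CPM all VSG libraries lay above all sham libraries in 28 of the 34, against 19.8% of all tested genes. Among the 28 are Ceacam10, in which VSG 5 and sham 1 had 2 counts each, and Gfi1, in which VSG 5, sham 1 and sham 3 had 4 each. The order of these libraries cannot be read in either gene, and both were too low to be tested. Among the 30 tested genes there were 26. In 1 (Cebpe) all lay below, against 19.8%, and in 5 the groups overlapped (Serpinb1a, Hdc, Lyz2, Stfa2 and Stfa3). The number of calls hung on single libraries. Without sham 3 and without VSG 6 only Prtn3 was called, without sham 2 there were 4 calls, without sham 1 there were 11, without VSG 4 there were 18 and without VSG 5 there were 28.

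**Figure D1:**
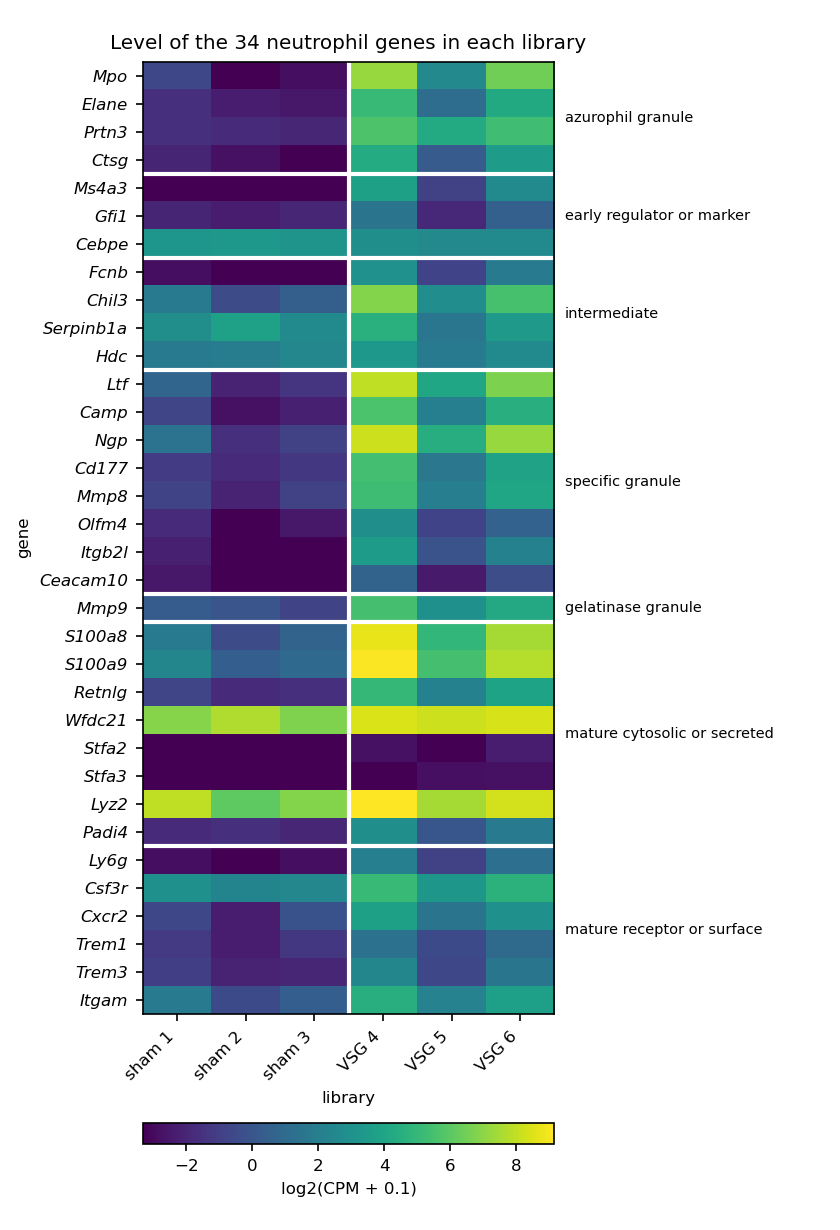
Level of each of the 34 genes (rows, grouped by role) in each of the 6 libraries (columns), as log2 of CPM plus 0.1, from dark (low) to yellow (high). The sham columns are dark in most rows, VSG 4 and VSG 6 are brightest, VSG 5 lies between them and the sham libraries, and Wfdc21, Lyz2 and Cebpe are visible in all 6 libraries.

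The azurophil granule genes were close to absent from sham livers and present in all VSG livers. Mpo (chr11:87793581-87804413, plus strand, GRCm38), which encodes myeloperoxidase, the enzyme that makes hypochlorous acid, had 15, 0 and 1 counts in sham 1, 2 and 3 and 3297, 137 and 1836 counts in VSG 4, 5 and 6. Its mean level was 0.197 ± 0.309 CPM in sham livers and 80.8 ± 71.8 CPM after VSG (SD, n = 3), with a log2 fold change of 8.55 (SE 1.54) in the edgeR fit. Nearly all of the sham signal came from sham 1, and VSG 5 lay 10.6-fold above that library. Elane (chr10:79886247-79888215), which encodes neutrophil elastase, had 6, 2 and 2 counts in sham and 786, 50 and 406 in VSG livers. Ctsg (chr14:56099881-56102574), which encodes cathepsin G, had 4, 1 and 0 counts in sham and 458, 26 and 250 in VSG livers. Both followed the order of Mpo among the VSG livers, with VSG 4 highest and VSG 5 lowest.

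Prtn3 (chr10:79874476-79883174, plus strand), which encodes proteinase 3, stood apart from the other 3 azurophil granule genes in its evenness. Its counts were 6, 4 and 4 in sham and 1137, 457 and 854 in VSG livers, or 0.185 ± 0.0348 against 37.2 ± 16.2 CPM. The log2 fold change was 7.61 with an SE of 0.506, the SE of Mpo, Elane and Ctsg being between 1.24 and 1.54. VSG 4 exceeded VSG 5 by 2.63-fold in Prtn3 and by 16.6-fold to 25.5-fold in the other 3. Prtn3 was called in all 11 alternative fits that tested it, those that left out 1 library included. It shares 159 of its 1732 exon bases with Plppr3 on the other strand, which itself had 15, 2 and 5 counts in sham and 67, 9 and 42 in VSG livers, and Mpo shares 512 of its 3424 exon bases with the antisense gene Gm11505, which had at most 4 counts in a library. Whether the counting used strand was not stated, and the part of these overlaps in the values was not tested.

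The make-up of the azurophil granule transcripts therefore differed between VSG livers. As a share of the summed level per kb (CPM divided by gene length) of the 4 genes, Prtn3 was 69.5% in VSG 5 against 22.9% in VSG 4 and 29.3% in VSG 6. Mpo was 10.5% in VSG 5 against 33.7% and 31.8%, and Elane was 13.4% against 27.9% and 24.5%. Per kb, Mpo was above Prtn3 in VSG 4 (ratio 1.47) and VSG 6 (1.09) and far below it in VSG 5 (0.152). The sham shares rest on 31, 7 and 7 counts over the 4 genes and cannot be read as a composition.

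**Figure D2:**
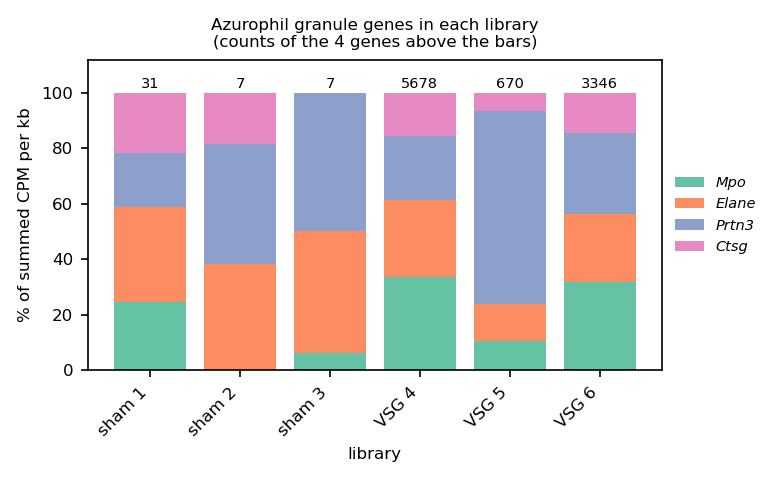
Share of each azurophil granule gene in the summed CPM per kb of Mpo, Elane, Prtn3 and Ctsg (vertical axis, percent) in each library, with the counts of the 4 genes above each bar. Prtn3 makes up 69.5% in VSG 5, against 22.9% and 29.3% in VSG 4 and VSG 6, and the sham bars rest on 31, 7 and 7 counts.

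The early regulators and markers did not move as a set. Ms4a3, a surface protein of granulocyte and monocyte progenitors, had 0 counts in every sham library and 302, 10 and 125 in VSG 4, 5 and 6, which makes it at least 55.4-fold higher against a floor of 3 counts per library. It had the steepest gradient of the 34 genes, VSG 4 being 32.0-fold above VSG 5, and its edgeR adjusted p of 0.0520 missed the threshold. Gfi1, a transcriptional repressor needed for neutrophil development, had 4, 2 and 4 counts in sham and 60, 4 and 28 in VSG livers and was too low to be tested. In Gfi1 VSG 5 had as few counts as the sham libraries, and VSG 4 and VSG 6 lay apart from them. Cebpe, which encodes C/EBPε, a factor required for specific granules, went the other way, with 255, 221 and 229 counts in sham and 161, 137 and 129 in VSG livers. Its level was 9.40 ± 0.698 CPM in sham livers against 6.43 ± 0.752 CPM after VSG, a log2 fold change of -0.55 (SE 0.144, edgeR adjusted p 0.0491), and it was the only gene of the 34 that was lower in every VSG library. The call only just passed and was made in 3 of 12 alternative fits (DESeq2, RLE factors and total counts), not by limma-voom, with either other count filter or without any 1 library. Cebpe was thus well detected in sham livers in which Ltf, Camp and Ngp, genes known to depend on C/EBPε, had 70 counts or fewer.

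Specific granule genes showed the largest number of counts among granule genes, and in 7 of the 8 every VSG library was above every sham library. In the eighth, Ceacam10, VSG 5 and sham 1 had 2 counts each, both at the floor of 3 counts. Ltf (chr9:111019271-111042767), which encodes the iron-binding protein lactoferrin, had 43, 3 and 7 counts in sham and 5461, 380 and 2197 in VSG livers. Ngp (chr9:110419747-110423012), neutrophilic granule protein, had 70, 5 and 12 counts in sham and 6634, 516 and 3166 in VSG livers. Camp (chr9:109847379-109849617), the cathelicidin antimicrobial peptide, had 14, 1 and 3 counts in sham and 1106, 97 and 485 in VSG livers. In each of these genes sham 1 was the highest sham library and VSG 5 was the lowest VSG library. Mean levels went from 0.663 ± 0.802 to 122.6 ± 116.3 CPM in Ltf, from 1.09 ± 1.30 to 157.6 ± 139 CPM in Ngp and from 0.225 ± 0.254 to 25.8 ± 23.0 CPM in Camp. The SD of the VSG livers was close to the mean in all 3.

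The remaining specific granule genes had the same order of libraries at lower levels. Cd177, a surface glycoprotein that binds proteinase 3 on human neutrophils, had 10, 4 and 8 counts in sham and 935, 70 and 308 in VSG livers. Mmp8, neutrophil collagenase, had 13, 3 and 12 against 854, 93 and 333. Olfm4, olfactomedin 4, marks a subset of neutrophils and had the widest gap between VSG 4 and VSG 6 in this group. Its counts were 5, 0 and 2 in sham and 160, 11 and 30 in VSG livers. Itgb2l, an integrin subunit, had 3, 0 and 0 against 250, 19 and 92 counts and was at least 45.6-fold higher. Ceacam10, an adhesion molecule of the carcinoembryonic antigen family, had 2, 0 and 0 against 32, 2 and 14 counts, at least 6.08-fold higher and too low to be tested. Itgb2l lay just inside the floor of 3 counts in sham, whereas Ctsg and Gfi1, each with up to 4 sham counts, lay just outside it.

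Genes of the intermediate stage divided into a pair that was high after VSG and a pair in which the groups overlapped. Chil3, the chitinase-like protein Ym1, had 90, 14 and 34 counts in sham and 2560, 158 and 979 in VSG livers, a 32.2-fold difference of the mean CPM. Fcnb, the lectin ficolin B, had 1, 0 and 0 against 172, 11 and 69 counts and was at least 31.9-fold higher. Serpinb1a, an inhibitor of neutrophil serine proteases, had 191, 302 and 162 counts in sham and 539, 68 and 223 in VSG livers, so that VSG 5 was below all 3 sham libraries. Hdc, which makes histamine, had 95, 80 and 143 against 217, 81 and 127 counts, and on the CPM scale VSG 5 was just below the sham libraries (3.46 CPM against 3.505 to 5.43 CPM) while VSG 4 and VSG 6 were above them. Chil3, Serpinb1a and Ly6g have near-identical relatives in the mouse genome, and how reads shared among copies were counted was not stated, so their values are uncertain.

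Mmp9, the gelatinase that gives the gelatinase granule its name, had 31, 19 and 13 counts in sham and 999, 176 and 382 in VSG livers. The sham libraries were close together at 0.835 ± 0.326 CPM, and the VSG livers were at 23.6 ± 19.4 CPM. VSG 4 was 6.01-fold above VSG 5, a smaller gap than in the 7 specific granule genes with VSG 5 above the floor.

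The calprotectin subunits were among the 4 most abundant genes of the list per kb in every VSG liver, with Wfdc21 and Lyz2. S100a9 led in VSG 4, and Wfdc21 led in VSG 5 and VSG 6, while in VSG 5 Lyz2, at 137 CPM per kb, was above S100a9 at 85.8. S100a8 had 89, 14 and 39 counts in sham and 9408, 729 and 3770 in VSG livers. S100a9 had 140, 27 and 48 against 11938, 1049 and 4635 counts. The 2 subunits kept their proportion over a wide span of levels, the ratio of S100a9 to S100a8 per kb being 1.64 to 2.56 over the 6 libraries. Per kb the mean of S100a9 was 5.25 CPM in sham livers against 514 CPM after VSG. Retnlg, a resistin-like peptide of mature neutrophils, had 14, 4 and 6 against 711, 102 and 315 counts. Padi4, the enzyme that citrullinates histones, had 5, 5 and 4 against 163, 21 and 73 counts.

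The other mature products behaved differently from the granule genes. Wfdc21 was abundant in sham livers, with 3218, 4505 and 2822 counts, and had 7767, 6992 and 7017 in VSG livers, 144 ± 53.9 against 328 ± 26.8 CPM. Among the genes higher after VSG it was the most even, VSG 4 being 1.18-fold above VSG 5. Lyz2, lysozyme, which monocytes and macrophages also express, had 6740, 1458 and 3048 counts in sham and 12632, 4213 and 6734 in VSG livers, and the groups overlapped. Stfa2 and Stfa3, near-identical stefin A genes, had 0 counts in sham and at most 2 in a VSG library, both at the floor.

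Receptors and surface proteins of mature neutrophils were higher in every VSG library than in any sham library. Of the 6, the 5 above the floor in at least 1 sham library had ratios of the VSG mean to the sham mean from 3.99 (Csf3r) to 16.7 (Cxcr2). Csf3r and Itgam alone were above it in all 3. Csf3r, the receptor for granulocyte colony-stimulating factor, had 205, 105 and 144 counts in sham and 778, 228 and 551 in VSG livers, or 5.94 ± 1.45 against 23.7 ± 12.9 CPM. Cxcr2, the chemokine receptor through which mature cells leave the marrow, had 15, 2 and 21 against 305, 62 and 160 counts. Ly6g, the surface antigen by which mouse neutrophils are recognised, had 1, 0 and 1 against 90, 10 and 47 counts and was at least 18.6-fold higher. Its level of 2.25 ± 1.82 CPM in VSG livers was low beside the 80.8 CPM of Mpo, and per kb the means were 2.38 and 23.6 CPM. Trem1 and Trem3, activating receptors of the immunoglobulin superfamily, had 9, 2 and 8 against 56, 14 and 39 counts for Trem1 and 11, 3 and 4 against 115, 13 and 58 counts for Trem3. Itgam, the CD11b subunit of the complement receptor integrin, had 97, 13 and 32 against 500, 106 and 277 counts. VSG 5 exceeded the highest sham library by only 1.27-fold in Itgam, whose edgeR adjusted p of 0.0518 missed the threshold. Itgam shares 3450 of its 5024 exon bases with Gm49368 on the same strand, which had at most 1 count in a library. How reads in shared exons were counted was not stated, so the values of both genes are uncertain.

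Among the 34 genes the size of the difference went with the level in sham livers. The 6 genes with a sham mean of at least 3 CPM (Cebpe, Serpinb1a, Hdc, Wfdc21, Lyz2 and Csf3r) had ratios of the VSG mean to the sham mean from 0.684 to 3.99. The 21 genes under 3 CPM in sham, with at least 1 sham library above the floor, had ratios from 6.86 (Trem1) to 409.8 (Mpo). The ratio of Mpo rests on sham 1, since its sham counts were 15, 0 and 1, and without that library the other 2 were at the floor and Mpo was at least 644-fold higher. The line of 3 CPM was drawn after the values were seen, and the sham level is itself part of the ratio, so this is a description.

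All 30 genes tested had the same order of VSG livers, VSG 4 above VSG 6 above VSG 5. That order held in 24.9% of all 14454 tested genes and in 36.9% of the 981 called higher. Sham 1 was the highest sham library in 20 of the 27 genes with a sham library above the floor, against 34.8% of all tested genes. The gap between VSG 4 and VSG 5 differed between and within the roles. It was 16.6-fold to 25.5-fold in the azurophil granule genes without Prtn3, 9.72-fold to 15.4-fold in the 7 specific granule genes with more than 3 counts in VSG 5, 6.01-fold in Mmp9 and 3.61-fold to 9.53-fold in the mature receptors. Other members did not follow the order of these stages. Prtn3 was at 2.63-fold, the early regulators and markers ran from 1.24-fold to 32.0-fold, the intermediate genes from 2.84-fold to 17.2-fold, and the mature S100a8 and S100a9 were at 13.7-fold and 12.0-fold. The gap between VSG 4 and VSG 6 was smaller and had another pattern, with 1.70-fold to 1.84-fold in the azurophil granule genes without Prtn3, 1.99-fold to 5.06-fold in the specific granule genes, 2.48-fold in Mmp9 and 1.34-fold to 1.88-fold in the mature receptors.

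**Figure D3:**
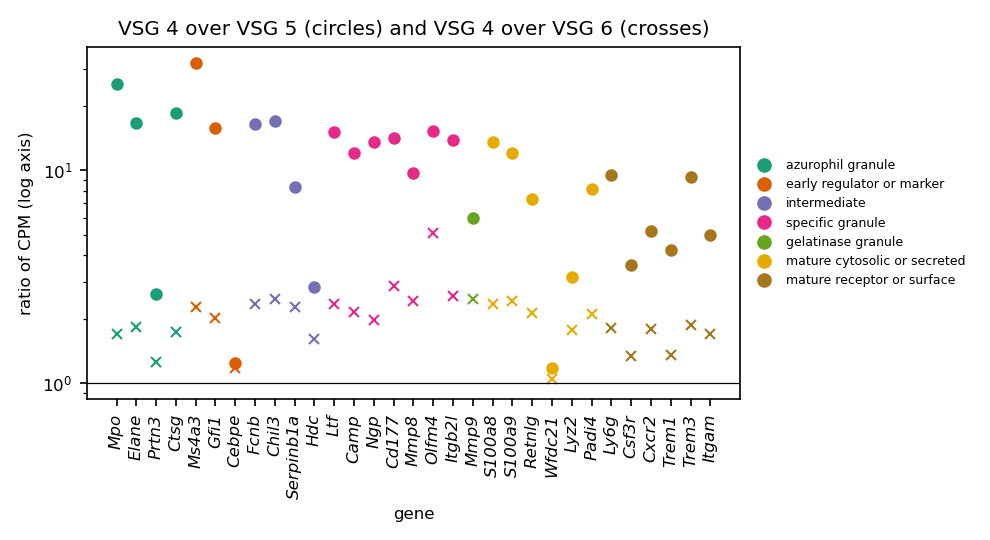
Ratio of the CPM in VSG 4 to that in VSG 5 (circles) and to that in VSG 6 (crosses) for each gene, on a log axis, coloured by role. The circles of Mpo, Elane and Ctsg lie at 16.6 to 25.5 and that of Prtn3 at 2.63, 7 specific granule genes at 9.72 to 15.4 and the mature receptors at 3.61 to 9.53. Ceacam10, Stfa2 and Stfa3 are left out because VSG 5 was at the floor of 3 counts.

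Early genes were set against late genes within each library, which asks how far the transcripts of immature cells accompany those of more mature ones. Summed per kb, the 4 azurophil granule genes were at 0.657, 0.242 and 0.176 CPM in sham 1, 2 and 3 and at 129, 16.2 and 80.3 CPM in VSG 4, 5 and 6. The 8 specific granule genes were at 3.72, 0.408 and 0.920 CPM in sham and at 419.6, 31.3 and 198 CPM in VSG livers. Both sums were higher in every VSG liver than in any sham liver. Their ratio was 0.177, 0.595 and 0.191 in sham and 0.308, 0.518 and 0.405 in VSG livers, or 0.321 ± 0.237 against 0.411 ± 0.105. The groups overlapped in this form of the ratio, which is led by the most abundant genes. On the mean of log2 levels, which weights the genes equally and adds 0.05 to each level, it was 0.776, 1.15 and 0.664 in sham against 2.16, 2.19 and 3.38 in VSG livers, with no overlap. Many sham levels are near or below the added 0.05. In sham 2 and sham 3 only Prtn3 of the 4 azurophil granule genes was above the floor. The sham ratio thus depends on the added value, and neither its size nor the lack of overlap is read. With 0.005 or 0.5 added instead, which was chosen after the values were seen, the group means were 0.949 and 2.703, or 0.907 and 2.09. The groups did not overlap there either, under the same limit. With Ms4a3, Gfi1 and Cebpe added to the early genes the direction turned, at 2.23, 20.6 and 7.85 in sham against 0.341, 0.678 and 0.449 in VSG livers. Cebpe alone, at 7.57 CPM per kb, exceeded the azurophil and specific granule sums of every sham liver. With the same 4 early genes the VSG mean was above the sham mean in each form of the ratio, and the direction turned only where genes were added to them. For the forms on log2 levels this direction is not read, because of the limit on their sham side. With Ngp, the most abundant specific granule gene, left out, the ratio was 0.610 in sham and 1.01 in VSG livers, and sham 2 (1.10) was above VSG 4 and VSG 6. With Mpo, the most abundant early gene, left out, the means were close, at 0.302 in sham and 0.315 in VSG livers. With Prtn3 left out they were 0.192 and 0.228. The groups overlapped in all 3 forms.

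Counting error limits the sham side of this ratio. The azurophil share of the counts of both granule sets was 16.2% (exact 95% interval 11.3 to 22.2) of 191 counts in sham 1, 30.4% (13.2 to 52.9) of 23 counts in sham 2 and 13.7% (5.70 to 26.3) of 51 counts in sham 3. In the VSG livers it was 26.9% (26.3 to 27.5) of 21110 counts, 36.1% (33.9 to 38.3) of 1858 counts and 33.6% (32.6 to 34.5) of 9971 counts. The intervals of VSG 4, the liver with the most neutrophil transcripts, lay below those of VSG 5 and VSG 6. The place of VSG 5 rested on Prtn3, with 457 of its 670 azurophil counts. Without Prtn3, left out after its values were seen, the share was 22.7% (22.2 to 23.3) in VSG 4, 15.2% (13.4 to 17.2) in VSG 5 and 27.3% (26.4 to 28.3) in VSG 6, so that the order of VSG 4 and VSG 5 was reversed. The ratio per kb in VSG 5 was then 0.158 in place of 0.518. These intervals hold counting error alone, because the reads carry no molecular identifiers and several can stem from 1 molecule.

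Against the latest genes the contrast was of another size. Mmp9 and the 6 mature receptor genes summed to 3.87, 1.89 and 2.45 CPM per kb in sham and to 41.9, 7.80 and 23.3 in VSG livers. The ratio of the azurophil granule genes to this sum was 0.170, 0.128 and 0.0718 in sham and 3.09, 2.08 and 3.44 in VSG livers. The groups did not overlap, with 0.123 ± 0.0492 in sham and 2.87 ± 0.706 in VSG livers. Single pairs gave the same picture in VSG livers, where Mpo per kb was 9.62, 1.97 and 10.2 times Cxcr2 and Ltf was 15.8, 5.42 and 12.1 times Cxcr2. In sham 1, the only sham liver with enough counts of both, Mpo was 0.890 times Cxcr2. Ltf was 2.53 times Cxcr2 in sham 1 and 0.295 times in sham 3. Against Mmp9, Ltf was at 1.42 and 0.552 in these sham livers and at 5.61, 2.22 and 5.90 in VSG 4, 5 and 6. Ltf is itself a gene of the late set, so a higher ratio to the latest genes was not particular to the azurophil granule genes. Since Csf3r and Itgam are also transcribed in monocytes and macrophages, and were detected in every sham liver, the sum of late genes has a base that the granule genes lack, and its part in the ratio was not tested.

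**Figure D4:**
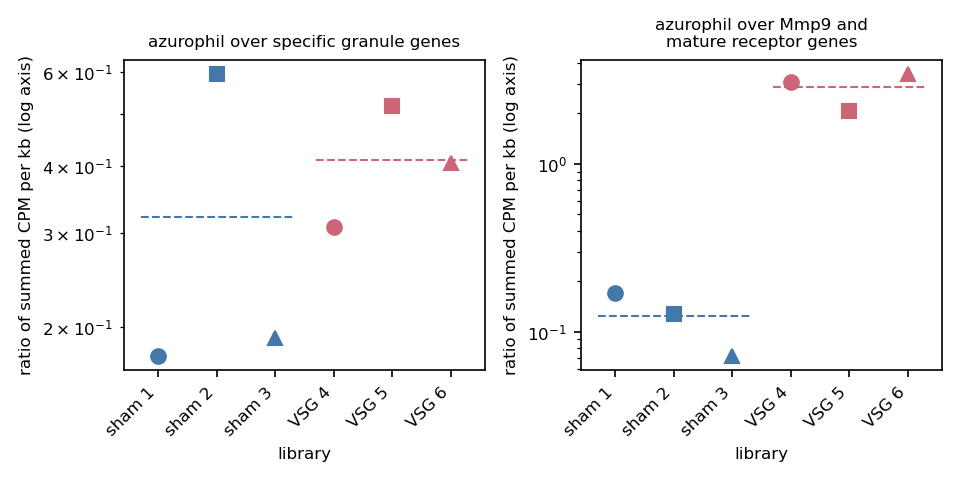
Ratio of the summed CPM per kb of the 4 azurophil granule genes to that of the specific granule genes (left) and to that of Mmp9 and the mature receptors (right) in each library, on log axes, with a dashed line at the mean of each group. On the left the groups overlap (sham 0.177 to 0.595, VSG 0.308 to 0.518), and on the right every VSG liver (2.08 to 3.44) lies above every sham liver (0.0718 to 0.170).

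Other genes were counted from 14 lists that left out the 34, of neutrophil and progenitor genes, regulators, signals and markers of other cells. Of the 130 genes of these lists that were tested, 20 were called as higher and 0 as lower after VSG by edgeR, against 6.79% and 7.87% of all tested genes. In the sentences that follow, genes are called, rise or do not pass by edgeR unless another tool is named. At an unadjusted p under 0.05 there were 39 higher and 2 lower, and the number lower was 1 by DESeq2 (Ttr) and 0 by limma-voom. As with the 34, the number of calls hung on single libraries. It was 1 without sham 3, 2 without VSG 6, 4 without sham 2, 7 without VSG 4, 10 without sham 1 and 51 without VSG 5. Among 25 further granule, receptor and effector genes, 20 were tested and 7 were higher (14 by DESeq2 and 2 by limma-voom), with a median log2 fold change of 2.04 against 0.03 over all tested genes. Lcn2, the siderophore-binding protein lipocalin-2, which hepatocytes make too, was at 136 ± 64.4 CPM in sham livers and rose to 3733 ± 3056 CPM, by 4.78 on the log2 scale (SE 0.949, edgeR adjusted p 0.0249). Lcn2 made up most of the summed level of this list, and without it the sum was 78.0 to 137 CPM in sham livers against 827, 126 and 344 CPM in VSG 4, 5 and 6, so that VSG 5 lay within the sham range. Pglyrp1, a peptidoglycan recognition protein of specific granules, rose by 4.83 on the log2 scale, Asprv1, a retroviral-like aspartic protease, by 3.79 and Mcemp1, a surface protein of myeloid cells, by 3.78. The 6 subunits of the NADPH oxidase, which makes superoxide, had a median of 1.38. Of these, 0 were called by edgeR, 3 were at an unadjusted p under 0.05, and DESeq2 called 3 and limma-voom 0. Ncf1 was at 9.01 ± 2.58 CPM in sham livers against 37.2 ± 26.7 CPM after VSG.

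Of 11 regulators of granulocyte development, 3 were called as higher, where 6.79% of all tested genes were. Myb, a factor of proliferating progenitors, was at 0.233 ± 0.0862 CPM in sham livers and rose to 5.24 ± 4.28 CPM, by 4.43 on the log2 scale (SE 1.03, edgeR adjusted p 0.0354). VSG 5, at 0.512 CPM, was far below VSG 4 at 8.86 and VSG 6 at 6.34 CPM. Runx1, a haematopoietic factor, rose by 2.08 (SE 0.445) and Stat3, which carries the signal of the Csf3 receptor among others, by 1.02 (SE 0.124). Cebpa, Cebpb and Spi1, the gene of PU.1, did not pass. Of 11 progenitor markers, 1 was called, namely Ctsc, the protease that activates the azurophil granule proteases, which rose by 1.75 (SE 0.257). Kit, a receptor of progenitors and mast cells, was at 6.38 ± 0.590 CPM in sham livers against 9.31 ± 1.37 CPM after VSG and did not pass (adjusted p 0.0638 by edgeR). DESeq2 called 3 of the 11, Kit, Ctsc and Hk3, and limma-voom called 1. Of 18 signals of granulopoiesis and recruitment, 11 were tested and 2 were called, the neutrophil chemoattractant Cxcl1, which rose by 3.66 (SE 0.854), and the cytokine Il1b, which rose by 1.90 (SE 0.417). Csf3, the growth factor of granulopoiesis, had 0 counts in all 6 livers, which allows up to 3 counts in each.

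Markers of other cells that a piece of liver can hold were read beside these values. Of 10 Kupffer cell and macrophage genes, 4 rose (Marco by 4.96, Timd4 by 3.03, Vsig4 by 1.51 and Clec4f by 1.23 on the log2 scale), and the summed level was 416 to 858 CPM in sham livers against 807 to 2293 CPM after VSG, again highest in VSG 4 and lowest in VSG 5. Cd5l of the same list did not pass. Of 7 monocyte genes, 1 rose (F13a1, by 3.43), with summed levels of 94.0 to 178 and 158 to 436 CPM, while Ly6c2, Ccr2 and Csf1r did not pass by edgeR. Cx3cr1 of the same list went the other way, with 9.67 ± 4.35 CPM in sham livers and 5.455 ± 2.65 CPM after VSG. It overlapped between the groups and did not pass. DESeq2 called 3 of the 7, F13a1, Ly6c2 and Csf1r, and limma-voom called 1. Of 6 megakaryocyte and platelet genes, 3 were tested and 1 rose (Ppbp, by 3.10), while Pf4 and Itga2b did not pass. Of 10 B lineage genes, 6 were tested and 1 rose, the joining chain gene Jchain of plasma cells, by 3.30 (SE 0.126), while Cd79a did not pass. These lists moved with the neutrophil genes in part, and their part in the result was not tested.

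Erythroid genes, whose cells share the marrow with neutrophil precursors, were not called. Of 16 such genes 15 were found and 11 tested, and 0 were called by edgeR, with 2 at an unadjusted p under 0.05, 1 call by DESeq2 and 0 by limma-voom. The 2 differed in sign. Hbb-bs, a beta-globin gene, was higher in every VSG liver, with a log2 fold change of 0.86 (SE 0.262, edgeR adjusted p 0.0720), and was the DESeq2 call. Car1, a carbonic anhydrase of red cells, was lower in every VSG liver, with 70, 109 and 97 counts in sham against 4, 49 and 21, a log2 fold change of -1.76 (SE 0.683, edgeR adjusted p 0.124). Summed levels were 141 to 207 CPM in sham livers against 189 to 297 CPM after VSG. Hba-a1, Alas2 and Klf1 each overlapped between the groups. The order among VSG livers was another one, since VSG 4 had the lowest erythroid sum and the highest sum of neutrophil genes. Of 10 T and NK cell genes, Cd3e and Ncr1 among them, 8 were tested and 0 called by any of the 3 tools, with 1 at an unadjusted p under 0.05. Of 11 eosinophil, basophil and mast cell genes only Siglecf was tested, and it was not called by any of the 3 tools or at an unadjusted p under 0.05. Their summed level was 1.10 to 1.44 CPM in sham livers against 2.78 to 5.11 CPM after VSG, and Epx, Prg2, Mcpt8 and Cpa3 had at most 24 counts in a library. In 7 of the 11 every VSG library was above every sham library by CPM, against 19.8% of all tested genes, though 10 of the 11 were too low to be tested. Of the 7, Prg2, Mcpt8 and Prss34 alone had more than 3 counts in every VSG library. Against the floor of 3 counts Prg2 was at least 7.10-fold higher, Prss34 at least 5.67-fold and Mcpt8 at least 3.78-fold, and edgeR called these 3 and Cpa3 as higher where every gene with at least 1 count was tested. The share of all genes called under that filter is not given here, so nothing is read from these calls. Of 19 cell cycle genes 0 were called by any of the 3 tools or at an unadjusted p under 0.05. Their sum was 82.8 to 139 CPM in sham livers against 236, 60.3 and 131 CPM in VSG 4, 5 and 6, in the order of the neutrophil genes, and its part in the result was not tested. The 6 hepatocyte genes, Apoa1 and Ttr among them, had a median of -0.07, and 0 were called by edgeR, with 1 (Ttr, as lower) at an unadjusted p under 0.05 and by DESeq2 and 0 by limma-voom. Their sum in VSG 4 was 0.590 of the sham mean, against 0.801 to 1.34 in sham livers. In VSG 5 and VSG 6 it was 0.978 and 0.944.

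**Figure D5:**
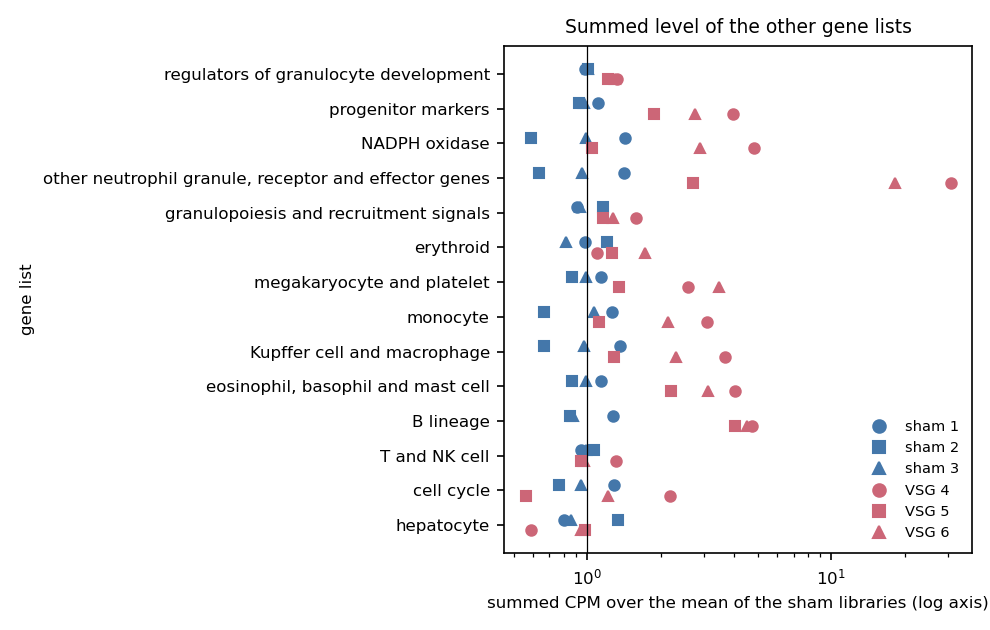
Summed CPM of each gene list in each library, divided by the mean of the 3 sham libraries, on a log axis, with sham libraries in blue and VSG libraries in red. The further neutrophil genes lie farthest to the right in VSG 4 and VSG 6 (30.8 and 18.2), mostly through Lcn2, without which they are at 7.84 and 3.26. The B lineage list is at 4.04 to 4.72 in all VSG livers, mostly through Jchain, without which it is at 1.17 to 1.75 and overlaps the sham livers (0.715 to 1.44). The Kupffer cell and monocyte lists show the order of the neutrophil genes among the VSG livers, with VSG 5 (1.29 and 1.12) below sham 1 (1.37 and 1.26). The progenitor list is mostly Ctsc, without which VSG 5 (1.06) is within the sham range (0.764 to 1.17), and the erythroid list shows another order, with VSG 4 lowest of the VSG livers.

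The genes most like the granule genes over the 6 libraries were sought among 12884 others with a mean of at least 1 CPM, by Pearson's r of log2 CPM, as a description over 6 points that share the depth and the split into groups. With the mean of the azurophil granule genes, r was highest for Sec23ip (0.9995), Gm17435, Zbtb7c, Olfr16 and Dnajc13. The counts of Sec23ip were 891, 681 and 808 in sham and 1022, 909 and 925 in VSG livers, so that its profile had the same shape at a far smaller amplitude. Olfr16 had 6, 1 and 2 counts in sham and 281, 48 and 189 in VSG livers. With the specific granule genes, r was highest for Pilrb1 (0.9991), Stk26, Alpk1, Tmc5 and Nfkbiz. Alpk1, a kinase that senses a bacterial sugar, had 356, 129 and 210 counts in sham and 3695, 905 and 2569 in VSG livers.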

How the data were processed

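Poly(A) RNA of 3 sham and 3 VSG livers was sequenced in strand-specific libraries. The deposited table holds raw read counts per gene, and per the labels the authors ran FastQC 0.10.1, STAR 2.6.0 and featureCounts 2.0.3 on mm10. Which annotation release and strand setting were used, and how reads with several positions were handled, was not given in the sources used here. Of 55385 identifiers, 54487 equalled those of GENCODE M21 with version and 55144 without it, and symbols, coordinates and exon overlaps came from that match. The table's gene lengths gave levels per kb.

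The test was the quasi-likelihood test of edgeR 4.0.16 under R 4.3.3 (filterByExpr with a minimum count of 10 and a minimum total of 15, TMM factors, glmQLFit and glmQLFTest with group as the only term), with Benjamini-Hochberg adjustment over all 14454 genes tested and a threshold of 0.05. Adjusted p-values come from this fit unless another tool is named. The smallest chi-square per degree of freedom between libraries of a group was 25.2, so none was a repeat of another. The p-values measure the spread between livers numbered in the labels. With 3 livers against 3 the smallest p that an exact permutation of 1 value allows is 0.1, and no such test was used. In simulated counts of 14454 genes for this comparison the fit called 94 of 100 genes changed 2-fold and 100 of 100 changed 4-fold. It also called 12 unchanged genes. The spread between libraries in the simulation is not given here, so these rates cannot be carried over to the genes reported. In the livers Itgam, with a VSG mean 7.49-fold the sham mean, and Lyz2, at 2.49-fold, were not called. Of the 30 genes of the main list that were tested, 24 were called as higher and 1 as lower.

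The 34 genes and all lists were chosen with earlier results of these data known. Named were all 34, up to 4 called genes of each other list by size of change, the defining markers of other cells (a few are not reported here) and the 5 genes most like each granule set. Other genes, among them Kit, Hk3, Ncf1, Hbb-bs, Car1, Siglecf, Prss34, Cx3cr1, Cebpa, Cebpb, Spi1 and Csf3, were named after their values were seen. Alternatives were DESeq2 1.42.0, limma-voom (limma 3.58.1), RLE factors, total counts, other low-count filters, a prior count of 2, leaving out each library and other forms of the early to late ratio.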

Additional observations from a re-analysis of the deposited data

How the results depend on the processing

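Of the 34 genes, 25 were called by edgeR. The number was 5 with limma-voom (Prtn3, S100a8, S100a9, Wfdc21 and Ly6g), 6 where at least 10 counts in every library were required, which left 11 of the 34 to be tested, and from 1 to 28 when 1 library was left out. DESeq2, RLE factors, total counts and a filter of at least 1 count gave 25 to 28. Of the 130 genes of the other lists, 20 were called, against 37 with DESeq2, 11 with limma-voom, 37 with the filter of at least 1 count and from 1 to 51 when 1 library was left out. The log2 fold change was positive in 29 of 30 tested genes, in 10 of 11 under the strict count filter and in 28 to 31 when 1 library was left out. No call of the 34 turned its direction. Serpinb1a, which was not called, went to -0.41 without VSG 4.

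The ratio of azurophil to specific granule genes was 0.321 in sham and 0.411 in VSG livers. It was 0.863 and 2.58 on the mean of log2 levels (0.949 and 2.703 with 0.005 added before the log, 0.907 and 2.09 with 0.5, both chosen after seeing the data). The sham side of these log2 forms depends on the added value and is not read. With Ms4a3, Gfi1 and Cebpe added it was 10.2 and 0.489, which turned the direction. It was 0.263 and 0.479 on CPM without gene length, 0.610 and 1.01 without Ngp, and 0.302 and 0.315 without Mpo. Without Prtn3 (chosen after seeing the data) it was 0.192 and 0.228. Against Mmp9 and the mature receptors it was 0.123 and 2.87. Leaving out 1 library gave 0.184 to 0.393 in sham and 0.357 to 0.462 in VSG livers. Where a value moved, the cause was not tested, beyond the smaller number of genes or libraries. Depth limits the sham side, where the 4 azurophil granule genes had 7 to 31 counts in all. No paired analysis was possible because the sample numbers are not shared between the groups.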
